A study of Mus musculus with 18 samples.

Results

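The 36 genes described here serve ribosome biogenesis, the making of ribosomal RNA and its assembly with proteins into ribosomal subunits. They were chosen by name, and each was read from the probe set that the array annotation assigns to that gene alone and that had the highest mean log2(signal + 16). All 36 of 36 passed the filter on low signals and were measured among 12877 genes tested. By role they comprise 5 genes of RNA polymerase I transcription, 4 of the box C/D small nucleolar ribonucleoprotein (snoRNP) and its helpers, 4 of the box H/ACA snoRNP, 8 of the small subunit processome and 40S assembly, 11 of 60S assembly and 4 nucleolar scaffold, chaperone and regulator genes.

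The arrays trace colitis-associated carcinogenesis in the colorectum of male mice of the outbred ICR stock, which were 6 weeks old when treatment began. All lesion groups received a single dose of 10 mg/kg azoxymethane (AOM, a colon carcinogen) on day 1, followed by cycles of dextran sulphate sodium (DSS, a polymer toxic to the lining of the colon) in the water they drank. Inflamed mucosa was taken at 2 weeks (day 14) and low grade dysplasia (LGD) at 4 weeks (day 28), both after a cycle of 2% DSS on days 8 to 14. High grade dysplasia (HGD) was taken at 6 weeks (day 42) after a further cycle of 1.5% on days 29 to 33. HGD with active inflammation was taken at 8 weeks (day 56) and carcinoma at 20 weeks (day 140), both after a last cycle of 1.5% on days 50 to 54. Normal mucosa came from mice given saline and plain water and was taken on day 14. Each of the 6 groups has 3 arrays labelled as biological replicates. Grades were set by microscopy. No group received AOM or DSS alone, and no normal mucosa was sampled after day 14, which means that lesion and age cannot be told apart for LGD and every later stage.

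Ribosomes are built in the nucleolus. RNA polymerase I transcribes the ribosomal DNA into a long precursor, snoRNPs guide the chemical modification of that RNA, the small subunit processome folds and cuts it, and separate sets of factors assemble the 40S and the 60S subunit. In the colon the dividing cells of the crypt base are the main site of this synthesis, and enlarged nucleoli are a classical feature of tumour cells. The transcription factor MYC, which acts downstream of Wnt signalling in the crypt, is known to raise the transcription of many genes of this pathway by binding the E-box CACGTG.

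The tissue itself changed most in the inflamed mucosa. Epithelial markers gave a summed signal of 1829 to 45154 there, against 89629 to 94353 in normal mucosa, and 17 of 18 fell. Neutrophil markers summed to 47254 to 87097 on the inflamed arrays, against 805 to 946 in normal mucosa, and 14 of 14 measured rose. In such bulk tissue, fewer cells of a type and less RNA per cell cannot be told apart. At the later stages the summed epithelial signal lay between 65109 and 101355, and by limma's adjusted p 0 of the 18 markers fell and 1 rose, Cldn4 in HGD at 8 weeks (1.88). In that stage 15 of the 18 had a negative change and 11 lay wholly below normal mucosa, with a median of -0.44. The signal of the 3' control probe set for 18S ribosomal RNA was 472 to 1064 on the inflamed arrays, against 1287 to 2310 on all others. The 5' and middle 18S probe sets were also lowest on inflamed replicates 1 and 2. Inflamed replicate 3 overlapped the other groups there, at 2242 and 864, against 1710 on LGD replicate 2 and 716 on carcinoma replicate 3. The part of the 18S signal in the inflamed results was not tested. LGD replicate 2 stood apart in RNA quality, with a 3' to 5' difference of 1.63 on the log2 scale between the Gapdh control probe sets, against -0.08 to 0.16 on the other 17 arrays.

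Promoter sequences were taken from RefSeq (build GRCm38.p6), in which 31 of the 36 genes have a window of 250 bases before to 50 bases after a transcription start. Fbl, Rrp12, Bop1, Rrs1 and Npm1 were not matched. CACGTG, which reads the same on both strands, lay in a window of 8 of the 31 genes (25.8%), namely Rrn3, Utp18, Utp20, Wdr43, Tsr1, Pes1, Nop2 and Mybbp1a, compared with 8.91% of 17462 protein-coding genes. The other motif searched, CCGGAAG of the ETS factor family, lay on either strand in 13 of the 31 (41.9%), compared with 12.9%, and 4 genes held both motifs. The member windows were also richer in G and C, with a median of 59.7% compared with 56.3% over protein-coding windows. These matches are letters in a window and not measured binding.

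Given here are the stretches from 250 bases before the start to the first 30 bases from it for 4 genes whose E-box lies inside and which stand for different roles and patterns: Rrn3 of RNA polymerase I, the 40S factor Tsr1, which fell in inflamed mucosa, and the 60S factors Nop2 and Pes1. Capitals mark CACGTG. They lie on the plus strand at chr16:13780449-13780728 (Rrn3), chr11:74897830-74898109 (Tsr1), chr6:125131633-125131912 (Nop2) and chr11:3963725-3964004 (Pes1).
Rrn3: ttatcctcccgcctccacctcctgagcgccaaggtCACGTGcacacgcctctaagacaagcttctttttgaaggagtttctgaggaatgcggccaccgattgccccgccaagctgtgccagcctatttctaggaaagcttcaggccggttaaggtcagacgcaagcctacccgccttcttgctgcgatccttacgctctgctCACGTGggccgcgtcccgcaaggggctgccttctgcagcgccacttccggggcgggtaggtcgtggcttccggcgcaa
Tsr1: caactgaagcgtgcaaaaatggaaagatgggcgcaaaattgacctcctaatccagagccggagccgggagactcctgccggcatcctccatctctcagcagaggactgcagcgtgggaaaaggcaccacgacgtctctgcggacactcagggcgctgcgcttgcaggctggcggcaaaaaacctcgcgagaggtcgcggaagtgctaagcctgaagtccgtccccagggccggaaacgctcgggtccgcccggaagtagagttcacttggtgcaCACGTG
Nop2: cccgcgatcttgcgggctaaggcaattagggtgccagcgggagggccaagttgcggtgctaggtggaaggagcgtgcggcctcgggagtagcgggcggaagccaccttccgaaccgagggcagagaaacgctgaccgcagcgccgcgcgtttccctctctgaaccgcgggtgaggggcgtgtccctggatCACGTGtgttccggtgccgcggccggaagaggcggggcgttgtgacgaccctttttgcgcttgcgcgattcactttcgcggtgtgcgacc
Pes1: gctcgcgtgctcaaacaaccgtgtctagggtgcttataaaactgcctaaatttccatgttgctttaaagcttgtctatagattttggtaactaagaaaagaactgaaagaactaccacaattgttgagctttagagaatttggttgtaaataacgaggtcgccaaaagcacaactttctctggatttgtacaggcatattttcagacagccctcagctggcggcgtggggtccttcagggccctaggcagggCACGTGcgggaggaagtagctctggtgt
Rrn3 carried 2 copies, 215 and 48 bases before the start, and Nop2 a copy 60 bases before it. In Pes1 the copy began 2 bases after the start and in Tsr1 24 bases after it. The copies in Utp20 and Mybbp1a began 37 and 40 bases after the start, beyond the stretch shown.

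Across the 6 groups, 15 of the 36 genes differed by limma's moderated F test, against a background of 45.3% of all genes tested, so the share among these genes was no higher than that of the array. The count was 7 without normal replicate 3 and 8 without normal replicate 2 or LGD replicate 2. The group mean was highest in LGD for 19 genes and in HGD at 8 weeks for 11, and it was lowest in normal mucosa for 20 and in inflamed mucosa for 10. Only Utp20 and Tsr1 had their highest mean in normal mucosa.

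**Figure D1:**
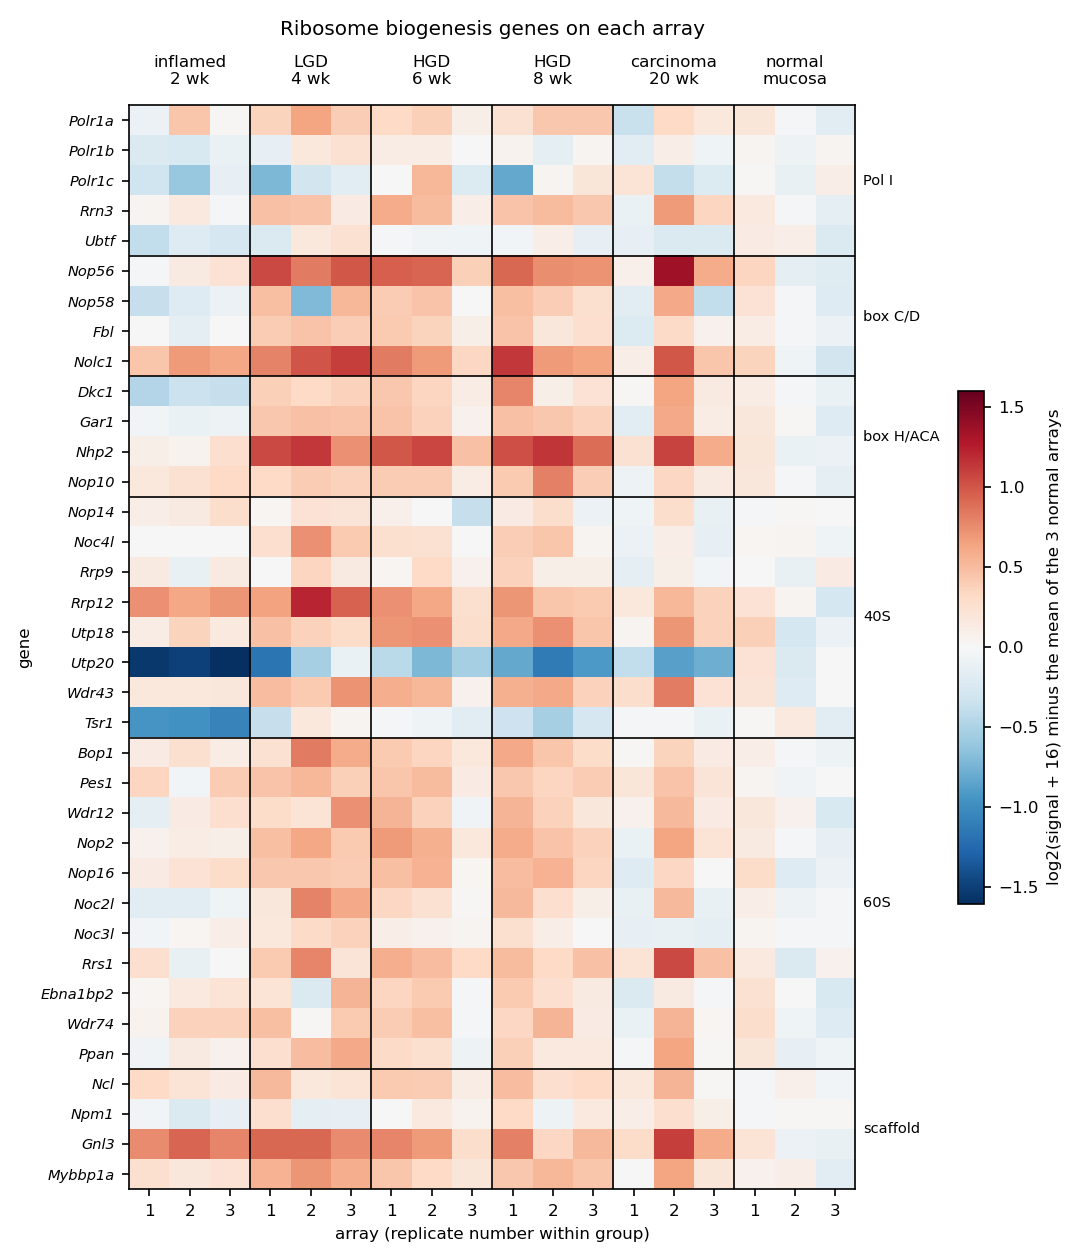
Each cell gives log2(signal + 16) of a gene (rows, grouped by role) on an array (columns, 3 per group) minus the mean of the 3 normal arrays; red is higher and blue lower. LGD, HGD at 8 weeks, the first 2 arrays of HGD at 6 weeks and the second carcinoma array are mostly red, while Utp20 and Tsr1 are blue on the inflamed arrays.

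The array-by-array counts show the same layout. In LGD, 29, 29 and 30 of the 36 genes lay above all 3 normal arrays. In HGD at 6 weeks the counts were 30, 32 and 11, and in HGD at 8 weeks 32, 27 and 24. Among the carcinomas replicate 2 had 29, but replicates 1 and 3 had 8 and 14, and the inflamed arrays had 10, 10 and 14. HGD at 6 weeks replicate 3 and carcinoma replicates 1 and 3 stood near normal mucosa, with a median difference over the 36 genes of 0.08, -0.06 and 0.1 log2 from the normal mean, while the other 2 arrays of HGD at 6 weeks had 0.42 and 0.39 and carcinoma replicate 2 had 0.51. Smooth muscle markers differed between the same arrays, with medians of -0.88, -2.13 and -0.31 on the 3 arrays of HGD at 6 weeks and 0.17, -1.1 and -0.8 on the 3 carcinomas, and their part in these differences was not tested.

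In LGD against normal mucosa 9 of the 36 genes rose and 0 fell (limma, adjusted p under 0.05), where 5.69% of all genes passed, 2.61% rising and 3.08% falling. The risers were Nhp2, Nolc1, Nop56, Rrp12, Gnl3, Mybbp1a, Bop1, Noc4l and Pes1, with log2 changes of 0.46 to 0.97. The median change of the 36 was 0.42, against 0.02 over all genes, and 32 of 36 had a positive change, compared with 52.4% of all genes. In 24 genes every LGD array lay above every normal array, and in Polr1c every LGD array lay below, compared with 16.3% and 14% of all genes (30.3% together). The count rested on single arrays: it was 4, 1 and 1 without normal replicates 1, 2 and 3, and 2, 1 and 10 without LGD replicates 1, 2 and 3, while the calls over all genes moved between 70 and 1787. With only the arrays of these 2 groups in the fit 0 genes passed (50 of all genes), where 3 did in HGD at 6 weeks. The single riser that held with any 1 of the 6 arrays left out was Rrp12.

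**Figure D2:**
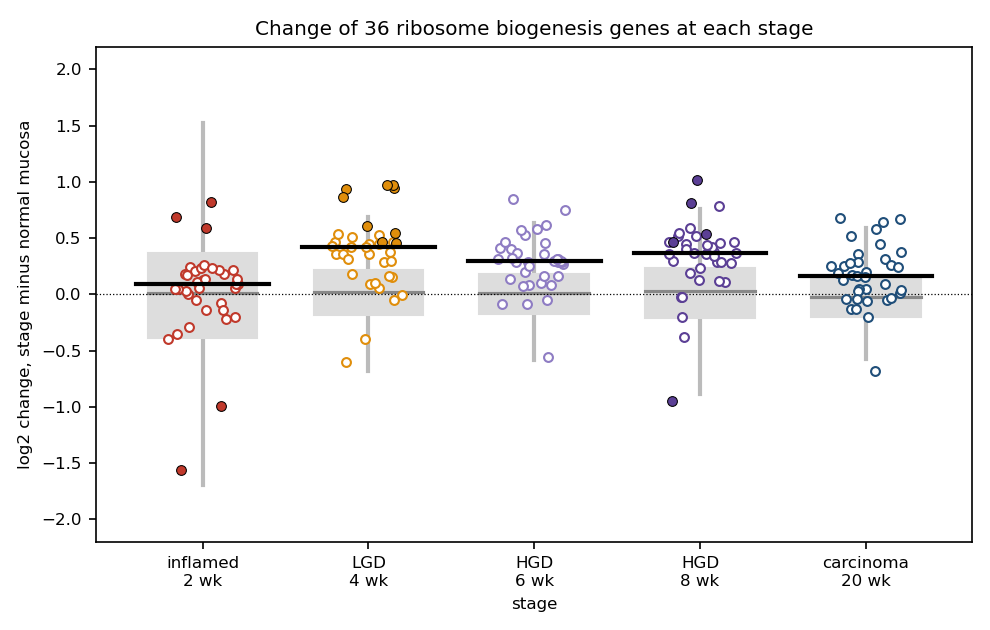
Points give the log2 change of each of the 36 genes at each stage minus normal mucosa, filled where limma's adjusted p is under 0.05; black bars are their medians. Grey boxes, grey bars and lines give the quartiles, median and 5th to 95th percentiles of all 12877 genes, and the medians of the 36 genes lie at 0.09, 0.42, 0.29, 0.37 and 0.16 from 2 to 20 weeks.

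HGD at 8 weeks had 4 genes that rose, Nhp2, Nolc1, Nop10 and Mybbp1a, and 1 that fell, Utp20, where 11.3% of all genes passed, 4.84% rising and 6.42% falling. The median change was 0.37, against 0.03 over all genes. In 21 genes the HGD arrays lay wholly above normal mucosa and in Utp20 and Tsr1 wholly below, compared with 15.5% and 17.9% of all genes (33.5% together). Without HGD replicate 2 a single call was left, and without HGD replicate 3 or normal replicates 2 or 3 there were 3, 2 and 2 calls, while quantile normalization or median centring gave 9, and only the arrays of the 2 groups gave 2. In HGD at 6 weeks 0 genes passed by limma, where 1.14% of all genes did, 0.621% rising and 0.52% falling. In 10 genes the arrays lay wholly above normal mucosa and in Utp20 wholly below, compared with 17.6% and 17.4% of all genes (35% together). The median change there was 0.29 and 18 genes had an unadjusted p under 0.05, among them Nhp2 with a change of 0.85 ± 0.2 (SE, adjusted p = 0.0559), which passed without replicate 3 (1.03, adjusted p = 0.0384).

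In carcinoma 0 of the 36 genes passed by limma, where 0.901% of all genes did, 0.326% rising and 0.575% falling, and 8 had an unadjusted p under 0.05. In 6 genes the carcinomas lay wholly above normal mucosa and in Utp20 and Noc3l wholly below, compared with 14.4% and 17.1% of all genes (31.5% together). The median change was 0.16, against -0.02 over all genes. Without carcinoma replicate 1 there were 3 calls, Nop56 (0.98, adjusted p = 0.0445), Gnl3 (0.86, adjusted p = 0.0387) and Nhp2 (0.84, adjusted p = 0.0431). That array had the lowest median of the carcinomas over the 36 genes, and 3 was the highest count with any array left out. In inflamed mucosa 3 genes rose, Gnl3, Rrp12 and Nolc1, and 2 fell, Utp20 and Tsr1, where 46.9% of all genes passed, 22.6% rising and 24.3% falling. The median change there was 0.09, against 0.01 over all genes. In 7 genes the inflamed arrays lay wholly above and in 6 wholly below, compared with 29.3% and 30.8% of all genes (60.2% together). All 5 comparisons with normal mucosa share the same 3 normal arrays.

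The 5 genes of RNA polymerase I transcription did not pass at any stage against normal mucosa (limma, unadjusted p under 0.05 for 1 of the 5 in each comparison except carcinoma, where it was 0). The shares of all genes that passed were 46.9%, 5.69%, 1.14%, 11.3% and 0.901% from inflamed mucosa to carcinoma. Rrn3 encodes the factor that makes the polymerase competent to initiate. Its log2 level was 7.8, 7.92 and 7.73 in inflamed mucosa, 8.23, 8.22 and 7.89 in LGD, 8.36, 8.27 and 7.87 in HGD at 6 weeks, 8.22, 8.27 and 8.19 in HGD at 8 weeks and 7.65, 8.44 and 8.11 in carcinoma, against 7.92, 7.74 and 7.62 in normal mucosa. Only HGD at 8 weeks lay wholly above normal mucosa, with a change of 0.47 ± 0.18 (SE, adjusted p = 0.0883). Polr1a, the largest subunit of the enzyme, had a change of 0.47 ± 0.18 in LGD (adjusted p = 0.121), with every LGD array above every normal array. Polr1c, a subunit shared with RNA polymerase III, had -0.4 ± 0.26 in LGD (adjusted p = 0.366). Polr1b, the second largest subunit, had changes of -0.2 to 0.09 over the 5 stages. Ubtf, which binds the ribosomal DNA promoter, had -0.29 in inflamed mucosa (adjusted p = 0.0751) and -0.2 to 0.06 later, while its other, dimmer probe set gave -0.67 in inflamed mucosa and -0.4 to -0.23 later. With the mean of both probe sets Ubtf passed as lower in inflamed mucosa (-0.48, adjusted p = 0.0164), as it did without normal replicate 3 (-0.41, adjusted p = 0.0212).

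The box C/D snoRNP places methyl groups on ribosomal RNA. Nop56, a core protein of it, had log2 levels of 9.14, 9.31 and 9.4 in inflamed mucosa, 10.22, 10 and 10.16 in LGD, 10.13, 10.1 and 9.55 in HGD at 6 weeks, 10.09, 9.91 and 9.89 in HGD at 8 weeks and 9.25, 10.53 and 9.77 in carcinoma, against 9.52, 9.02 and 8.97 in normal mucosa. All LGD and HGD arrays lay above all normal arrays, the inflamed arrays overlapped them, and the carcinomas spanned from the normal range to the highest value of all. The change was 0.95 ± 0.25 in LGD (adjusted p = 0.0423) and 0.68 ± 0.25 in carcinoma (adjusted p = 0.176), and the gene's other probe set gave 0.94 and 0.68. The LGD call was lost when any of the 3 normal arrays or LGD replicate 1 or 2 was left out.

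Nolc1, a nucleolar phosphoprotein that chaperones snoRNPs, had log2 levels of 8.27, 8.51 and 8.44 in inflamed mucosa, 8.62, 8.83 and 8.93 in LGD, 8.66, 8.51 and 8.15 in HGD at 6 weeks, 8.95, 8.5 and 8.45 in HGD at 8 weeks and 7.93, 8.82 and 8.27 in carcinoma, against 8.18, 7.76 and 7.53 in normal mucosa. The inflamed, LGD and 8-week HGD arrays all lay above normal mucosa, while a single array of HGD at 6 weeks and a single carcinoma fell inside its range. Nolc1 rose by 0.59 ± 0.22 in inflamed mucosa (adjusted p = 0.0413), 0.97 ± 0.22 in LGD (adjusted p = 0.0248) and 0.81 ± 0.22 in HGD at 8 weeks (adjusted p = 0.0346). The inflamed value was not shared by the other 2 probe sets of the gene, which gave -0.4 and 0.03, and in LGD they gave 0.31 and 0.27. Leaving out inflamed replicates 2 or 3 or normal replicates 2 or 3 also ended the inflamed call. Fbl, the methyltransferase of the particle, had a change of 0.42 ± 0.13 in LGD (adjusted p = 0.0627), and Nop58, the partner of Nop56, had 0.1 ± 0.3 there, with LGD replicate 2 at 8.84 and replicates 1 and 3 at 10.03 and 10.07.

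The box H/ACA snoRNP converts uridines of ribosomal RNA to pseudouridine, and its proteins also bind telomerase RNA. Nhp2 had the largest rise of the 36 genes. Its log2 level was 10.42, 10.39 and 10.6 in inflamed mucosa, 11.38, 11.46 and 11.06 in LGD, 11.32, 11.4 and 10.8 in HGD at 6 weeks, 11.36, 11.47 and 11.22 in HGD at 8 weeks and 10.57, 11.41 and 10.93 in carcinoma, against 10.53, 10.22 and 10.24 in normal mucosa. Every dysplasia and carcinoma array lay above every normal array, and the inflamed arrays overlapped normal mucosa. Nhp2 rose 2.03-fold in HGD at 8 weeks (1.02 ± 0.2, adjusted p = 0.00952) and 1.96-fold in LGD (0.97 ± 0.2, adjusted p = 0.0168). The 8-week call held under every alternative tried, the LGD call was lost when LGD replicate 1 or 2 or normal replicate 2 or 3 was left out, and in carcinoma the change was 0.64 ± 0.2 (adjusted p = 0.117). Its other probe set gave 1.02 in LGD, 1.05 in HGD at 8 weeks and 0.75 in carcinoma.

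Nop10, the smallest protein of the particle, had 11.93, 12.31 and 11.9 in HGD at 8 weeks, against 11.69, 11.48 and 11.35 in normal mucosa. The groups did not overlap, and the rise of 0.54 ± 0.13 passed (adjusted p = 0.0223), though not without HGD replicate 2 or normal replicate 2 or 3. Dkc1, the pseudouridine synthase itself, had log2 levels of 9.34, 9.47 and 9.44 in inflamed mucosa and 10.2, 10.13 and 10.18 in LGD, against 9.93, 9.8 and 9.71 in normal mucosa. Inflamed mucosa lay below and LGD above every normal array, but neither change passed against normal mucosa (-0.4 ± 0.17, adjusted p = 0.0731, and 0.36 ± 0.17, adjusted p = 0.225). Gar1, the fourth protein, had a change of 0.45 ± 0.16 in LGD (adjusted p = 0.103), again with no overlap.

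**Figure D3:**
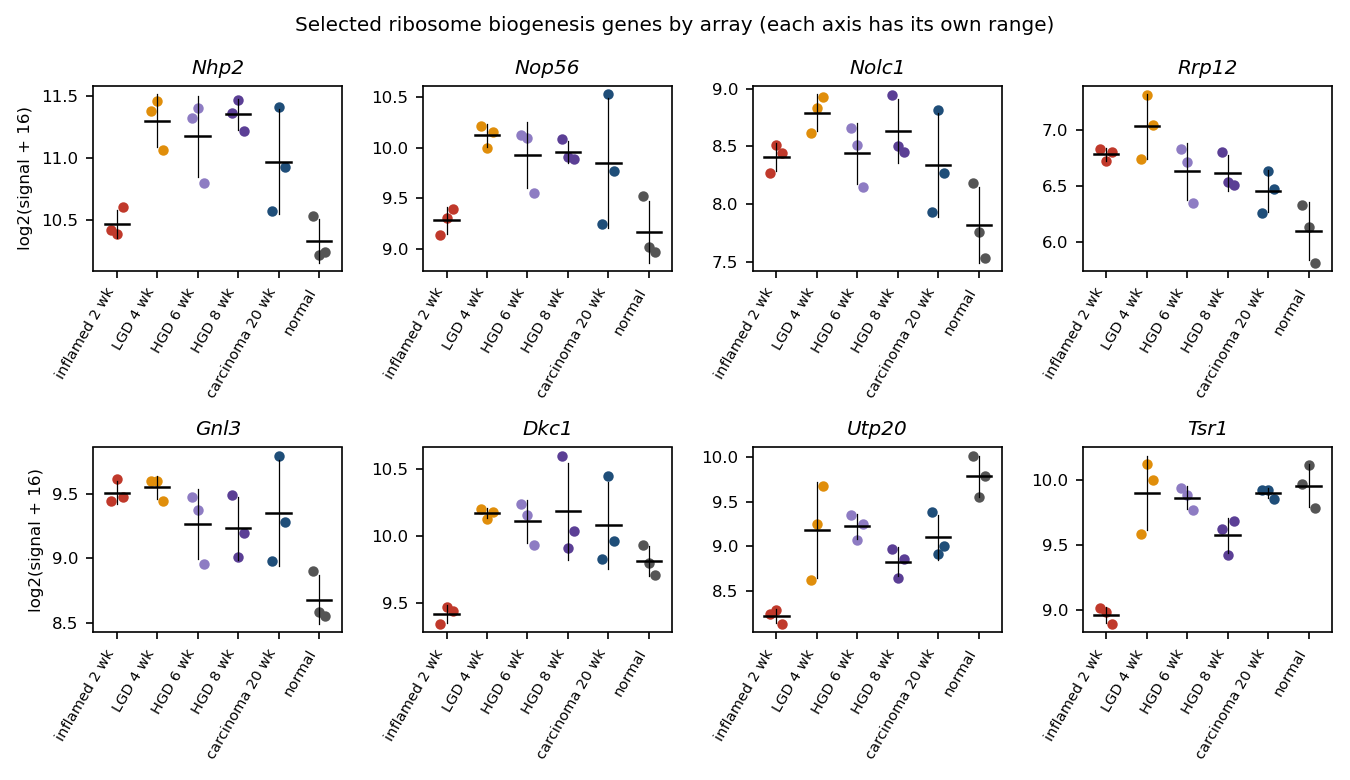
Log2(signal + 16) of 8 of the genes on every array, with the mean (bar) and SD (line) of the 3 arrays of a group. Nhp2 and Nop56 lie above normal mucosa on all LGD and HGD arrays, Rrp12 and Gnl3 already on the inflamed arrays, and Utp20, Tsr1 and Dkc1 have their lowest values on the inflamed arrays.

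The largest falls were among the genes of the small subunit. Utp20, a large scaffold-like protein of the processome, had log2 levels of 8.24, 8.29 and 8.13 in inflamed mucosa, 8.62, 9.25 and 9.68 in LGD, 9.35, 9.07 and 9.25 in HGD at 6 weeks, 8.97, 8.65 and 8.86 in HGD at 8 weeks and 9.39, 8.92 and 9 in carcinoma, against 10.01, 9.55 and 9.79 in normal mucosa. It was below every normal array on all arrays but LGD replicate 3, and lowest on the 3 inflamed arrays. Utp20 fell by 1.56 ± 0.22 in inflamed mucosa, to 0.34 of its normal signal (adjusted p = 4.92e-05), a call that held under every alternative. It also fell by 0.95 ± 0.22 in HGD at 8 weeks (adjusted p = 0.017, but up to 0.0596 without HGD replicate 2 or normal replicate 1), and its changes of -0.6 in LGD, -0.56 in HGD at 6 weeks and -0.68 in carcinoma did not pass. A single probe set stands for Utp20 on this array. Of the 18 epithelial markers 17 fell on the same inflamed arrays, and their part in the low values of Utp20 and Tsr1 was not tested.

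Tsr1, needed for a late step of 40S maturation, had 9.01, 8.98 and 8.89 in inflamed mucosa, 9.58, 10.12 and 10 in LGD, 9.94, 9.88 and 9.77 in HGD at 6 weeks, 9.62, 9.42 and 9.68 in HGD at 8 weeks and 9.92, 9.92 and 9.85 in carcinoma, against 9.97, 10.11 and 9.78 in normal mucosa. The inflamed arrays lay far below all others, and HGD at 8 weeks lay below normal mucosa by less. Tsr1 fell by 0.99 ± 0.13 in inflamed mucosa (adjusted p = 3.37e-05), under every alternative that measured it, and its other probe set fell by 0.92. Its probe sets have an _s_at suffix, so the alternative with only plain _at probe sets did not measure Tsr1. The change in HGD at 8 weeks was -0.38 ± 0.13 (adjusted p = 0.0682) and in carcinoma -0.06 ± 0.13.

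Rrp12, an export and maturation factor known from yeast, moved the other way in the same inflamed arrays. Its log2 level was 6.83, 6.72 and 6.8 in inflamed mucosa, 6.74, 7.31 and 7.04 in LGD, 6.83, 6.71 and 6.35 in HGD at 6 weeks, 6.8, 6.54 and 6.51 in HGD at 8 weeks and 6.26, 6.63 and 6.47 in carcinoma, against 6.33, 6.14 and 5.82 in normal mucosa. All arrays of the first 4 stages lay above normal mucosa, and a single carcinoma fell inside its range. Rrp12 rose by 0.69 ± 0.17 in inflamed mucosa (adjusted p = 0.00378) and by 0.94 ± 0.17 in LGD (adjusted p = 0.0104). A single probe set stands for Rrp12, and its normal levels lay near the filter's floor, the table median signal of 56.6. In LGD the call was lost only when the fit used the arrays of these 2 groups alone (adjusted p = 0.0841), and in HGD at 8 weeks the change of 0.52 ± 0.17 missed the threshold (adjusted p = 0.0585). Noc4l, whose yeast counterpart joins the processome, had 7.86, 8.32 and 8.01 in LGD, against 7.62, 7.63 and 7.52 in normal mucosa, a rise of 0.47 ± 0.13 (adjusted p = 0.0469). Wdr43 and Utp18, both processome proteins, had their largest changes at 0.54 in LGD (adjusted p = 0.0696) and 0.59 in HGD at 8 weeks (adjusted p = 0.0527), and Nop14 and Rrp9 stayed between -0.09 and 0.19 over the 5 stages.

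Of the 11 genes of 60S assembly, 2 rose in LGD and 0 passed at the other stages (limma, unadjusted p under 0.05 for 9 in LGD, 5 in each HGD group, 2 in carcinoma and 0 in inflamed mucosa). Over all genes tested 5.69% passed in LGD and 2.61% rose. Elsewhere 46.9% passed in inflamed mucosa, 1.14% and 11.3% in HGD at 6 and 8 weeks and 0.901% in carcinoma. All 11 had a positive change in LGD and in both HGD groups. Pes1 and Bop1 encode partners in the PeBoW complex, which processes the RNA of the large subunit. Pes1 had log2 levels of 8.83, 8.45 and 8.89 in inflamed mucosa, 8.95, 9.02 and 8.87 in LGD, 8.94, 9 and 8.62 in HGD at 6 weeks, 8.92, 8.84 and 8.89 in HGD at 8 weeks and 8.69, 8.95 and 8.7 in carcinoma, against 8.54, 8.43 and 8.5 in normal mucosa. Inflamed replicate 2 was the sole lesion array inside the normal range. The rise in LGD was 0.46 ± 0.13 (adjusted p = 0.0493) and was lost under 6 of 10 other settings and without any of 5 of the 6 arrays. A dimmer probe set of Pes1, removed by the filter on low signals, gave -0.34.

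Bop1 had 8.14, 8.73 and 8.49 in LGD, against 8, 7.88 and 7.82 in normal mucosa, and rose by 0.55 ± 0.14 (adjusted p = 0.0384). The groups did not overlap, but the gene's other, dimmer probe set gave -0.01. Wdr12, the third partner of the complex, had a change of 0.42 ± 0.19 there (adjusted p = 0.195). Nop2, an RNA methyltransferase, had 8.31, 8.36 and 8.33 in inflamed mucosa, 8.72, 8.86 and 8.66 in LGD, 8.92, 8.8 and 8.4 in HGD at 6 weeks, 8.83, 8.69 and 8.6 in HGD at 8 weeks and 8.13, 8.87 and 8.46 in carcinoma, against 8.38, 8.22 and 8.11 in normal mucosa. Its dysplasia arrays all lay above normal mucosa, with a change of 0.51 ± 0.17 in LGD (adjusted p = 0.0785).

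Noc3l, a factor for which the yeast counterpart carries precursors of the large subunit through the nucleus, varied within a narrow range. Its log2 level was 7.01, 7.08 and 7.15 in inflamed mucosa, 7.22, 7.36 and 7.42 in LGD, 7.16, 7.12 and 7.1 in HGD at 6 weeks, 7.3, 7.16 and 7.06 in HGD at 8 weeks and 6.92, 6.93 and 6.9 in carcinoma, against 7.1, 7.02 and 7.03 in normal mucosa. LGD lay above and carcinoma below all normal arrays, with changes of 0.29 ± 0.08 (adjusted p = 0.0512) and -0.13 ± 0.08 (adjusted p = 0.414), and the gene's other, dimmer probe set gave -0.08 and 0. Rrs1, which in yeast helps recruit the 5S particle, had its largest change in carcinoma, with 9.45, 10.29 and 9.7 against 9.39, 9.01 and 9.31 in normal mucosa. These groups did not overlap either, and the change was 0.58 ± 0.2 (adjusted p = 0.147). The other 5 genes, Nop16, Noc2l, Ebna1bp2, Wdr74 and Ppan, had changes of 0.18 to 0.53 in LGD and -0.04 to 0.2 in carcinoma, and 0 of them passed.

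Gnl3 (nucleostemin), a nucleolar GTPase abundant in stem and tumour cells, was above normal mucosa throughout. Its log2 level was 9.44, 9.61 and 9.47 in inflamed mucosa, 9.6, 9.6 and 9.44 in LGD, 9.47, 9.37 and 8.96 in HGD at 6 weeks, 9.49, 9.01 and 9.2 in HGD at 8 weeks and 8.98, 9.79 and 9.28 in carcinoma, against 8.9, 8.59 and 8.56 in normal mucosa. All 15 lesion arrays exceeded all 3 normal arrays. Gnl3 rose by 0.82 ± 0.19 in inflamed mucosa (1.77-fold, adjusted p = 0.00257), under every alternative that measured it, and by 0.87 ± 0.19 in LGD (adjusted p = 0.0218). Its only probe set has an _a_at suffix, so the alternative with only plain _at probe sets did not measure Gnl3. The changes of 0.58, 0.55 and 0.67 in HGD at 6 weeks, HGD at 8 weeks and carcinoma had adjusted p = 0.124, 0.0697 and 0.0965.

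Mybbp1a, a nucleolar regulator of transcription that binds RNA polymerase I, had 10.29, 10.22 and 10.26 in inflamed mucosa, 10.59, 10.74 and 10.61 in LGD, 10.48, 10.35 and 10.23 in HGD at 6 weeks, 10.46, 10.57 and 10.48 in HGD at 8 weeks and 10.04, 10.66 and 10.23 in carcinoma, against 10.1, 10.14 and 9.86 in normal mucosa. All arrays but carcinoma replicate 1 were above normal mucosa, and LGD was highest. Mybbp1a rose by 0.61 ± 0.13 in LGD (adjusted p = 0.0215) and by 0.47 ± 0.13 in HGD at 8 weeks (adjusted p = 0.0399). Ncl (nucleolin) had changes of 0.23 to 0.36 over the 5 stages and Npm1 (nucleophosmin, a histone and ribosome chaperone) -0.14 to 0.15, and 0 of these passed. For Npm1 in LGD the 95% interval ran from -0.25 to 0.24, and its other probe set gave -0.04 to 0.17 over the stages. The other 4 probe sets of Ncl gave -0.45 to 0.43 in inflamed mucosa, so the direction of Ncl there differed between probe sets.

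Among 27 further probe sets of 20 of the genes, the sign against normal mucosa matched that of the probe set used in 23 in LGD, 24 in each HGD group, 20 in carcinoma and 15 in inflamed mucosa.

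LGD was then set against inflamed mucosa to ask how these genes stood after the first DSS injury, in mice that had received the same cycle. Of the 36 genes 14 rose and 0 fell, where 36.3% of all genes passed, 19.3% rising and 17% falling. In 17 of them LGD lay wholly above inflamed mucosa and in 0 wholly below, compared with 24% and 21.9% of all genes (45.9% together). The risers were Polr1b, Ubtf, Nop56, Fbl, Dkc1, Gar1, Nhp2, Noc4l, Utp20, Tsr1, Bop1, Noc2l, Noc3l and Mybbp1a. The other, dimmer probe sets of Noc2l and Bop1 did not show a rise, at -0.05 and -0.06. The calls of Polr1b, Ubtf, Bop1 and Mybbp1a each held in only 1 of 6 fits without an array. Utp20 was higher by 0.96 ± 0.22 (adjusted p = 0.00322), Tsr1 by 0.94 ± 0.13 (adjusted p = 9.87e-05), Nhp2 by 0.83 ± 0.2 (adjusted p = 0.00467) and Dkc1 by 0.76 ± 0.17 (adjusted p = 0.00379). These 4 held under every alternative that measured them. The count, by contrast, was 7 without LGD replicate 2, 8 without inflamed replicate 1 and 9 without inflamed replicate 2 or LGD replicate 3. The 3 genes that rose in inflamed mucosa did not pass here, with changes of 0.38 for Nolc1, 0.25 for Rrp12 and 0.04 for Gnl3. Epithelial markers moved in the same comparison, with 17 of 18 higher and summed signals of 65109 to 101355 in LGD against 1829 to 45154 in inflamed mucosa. Proliferation genes were higher in 19 of 23 (median 1.09), and 12 of 15 macrophage and monocyte, 5 of 14 neutrophil and 5 of 12 fibroblast and matrix markers were lower. The part of these in the differences was not tested.

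Carcinoma against inflamed mucosa gave 4 genes that were higher and 0 lower, where 42.4% of all genes passed, 21.2% in each direction. In 5 genes the carcinomas lay wholly above inflamed mucosa and in Rrp12 and Noc3l wholly below, compared with 29.3% and 27.6% of all genes (56.9% together). The 4 were Tsr1 (0.93 ± 0.13, adjusted p = 7.44e-05), Utp20 (0.88 ± 0.22, adjusted p = 0.00444), Dkc1 (0.66 ± 0.17, adjusted p = 0.00702) and Rrs1 (0.53 ± 0.2, adjusted p = 0.0422). Tsr1, Utp20 and Dkc1 held under every alternative that measured them. The Rrs1 call held under 5 of 10 other settings and 2 of 6 fits without an array (limma, adjusted p up to 0.221). Its other probe set gave 0.34. Leaving out an array gave counts of 3 to 8, with 8 without carcinoma replicate 1, where Nop56, Nhp2, Rrn3 and Gar1 were added. All 18 epithelial markers were higher in carcinoma (75911 to 88043 against 1829 to 45154), as were 16 of 23 proliferation genes, and 15 of 15 macrophage and monocyte and 12 of 14 neutrophil markers were lower. Their part here too was not tested. Between HGD at 8 weeks and HGD at 6 weeks, and between carcinoma and HGD at 6 weeks, limma called 0 of the 36 genes and 0 of all genes (0% of each). At an unadjusted p under 0.05 there was 1 of the 36 in each, and the median changes were 0.05 and -0.12. In each, 0 of the 36 lay wholly above and 2 wholly below, compared with 3.47% above and 6.75% below of all genes in the first (10.2% together) and 4.9% above and 9.43% below in the second (14.3% together).

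Of 117 other ribosome biogenesis genes measured, 8 rose and 0 fell in LGD (6.84%, where 5.69% of all genes passed and 2.61% rose), and 10 rose and 0 fell in HGD at 8 weeks (8.55%, where 11.3% passed and 4.84% rose). Their medians were 0.24 and 0.23. Bysl, a 40S assembly factor, rose by 0.82 ± 0.17 in LGD (adjusted p = 0.0188) and 0.72 ± 0.17 in HGD at 8 weeks (adjusted p = 0.0218). Heatr1, a processome protein, and the helicase gene Ddx21 rose by 0.73 and 0.72 in LGD, and Ltv1, a 40S factor, by 1.05 in HGD at 8 weeks. In inflamed mucosa 12 rose and 6 fell (15.4%, against 46.9% of all genes), such as the exosome gene Exosc8 (0.81) and Taf1d, a subunit of the RNA polymerase I promoter factor (-0.9). In HGD at 6 weeks and in carcinoma 0 passed (limma, unadjusted p under 0.05 for 26 and 20). Of 45 genes for the ribosomal proteins themselves, 0 passed in LGD by limma (2 at an unadjusted p under 0.05) and 1 in HGD at 8 weeks (Rps27l, 0.27), with medians of 0.01 and 0.04. In inflamed mucosa Rpl27a (-1.02), Rpl14 (-0.89), Rps6 (-0.48) and 1 other fell and Rps27 (0.38) rose. These were 11.1% of the 45, a lower share than the 46.9% of all genes that passed there (24.3% falling).

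Against normal mucosa Myc itself rose in HGD at 8 weeks by 0.65 ± 0.19 (adjusted p = 0.0427). In HGD at 6 weeks its change was also 0.65 (adjusted p = 0.102), in carcinoma 0.59 (adjusted p = 0.134), in LGD 0.41 (adjusted p = 0.199) and in inflamed mucosa -0.18 (adjusted p = 0.47). Against inflamed mucosa Myc was higher by 0.59 in LGD (limma, adjusted p = 0.0248) and by 0.77 in carcinoma (adjusted p = 0.00492). In these comparisons 19.3% and 21.2% of all genes rose. Among the 12 measured genes of the Myc network, 6 fell in inflamed mucosa (50%, where 46.9% of all genes passed and 24.3% fell), such as the antagonist gene Mxd1 (-2.05) and the partner gene Max (-0.82). Mlxip, a further gene of the network, fell in HGD at 8 weeks (-0.7, adjusted p = 0.0266).

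Of 23 proliferation genes measured, 6 rose in LGD, where 5.69% of all genes passed and 2.61% rose. Among them were the replication helicase genes Mcm3 (0.91) and Mcm4 (0.73). The summed signals of the 23 genes were 18432 to 23297 in LGD, against 13528 to 15477 in normal mucosa. HGD at 6 weeks replicate 3, lowest of its group for the 36 genes, was also lowest for proliferation, with a median difference of 0.18 beside 0.5 and 0.44 on replicates 1 and 2. Carcinoma replicate 2, highest of its group for the 36 genes, was also highest for proliferation, with 0.2 beside 0.01 and -0.17 on replicates 1 and 3. On the LGD arrays the proliferation medians were 0.61, 0.61 and 0.3, where those of the 36 genes were 0.4, 0.43 and 0.4. In HGD at 8 weeks they were 0.68, 0.17 and 0.16, beside 0.46, 0.36 and 0.29. The median changes of the 23 genes were 0.37 in HGD at 6 weeks, 0.35 in HGD at 8 weeks and -0.02 in carcinoma. Those of the 36 genes were 0.29, 0.37 and 0.16. In inflamed mucosa 14 of the 23 proliferation genes fell, where 24.3% of all genes did, and summed signals were 10495 to 11734. On the same arrays Gnl3, Rrp12 and Nolc1 rose, and Utp20 and Tsr1 fell. The rise of Nolc1 was not shared by its other probe sets, at -0.4 and 0.03. The part of proliferation in the changes of the 36 genes was not tested.

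**Figure D4:**
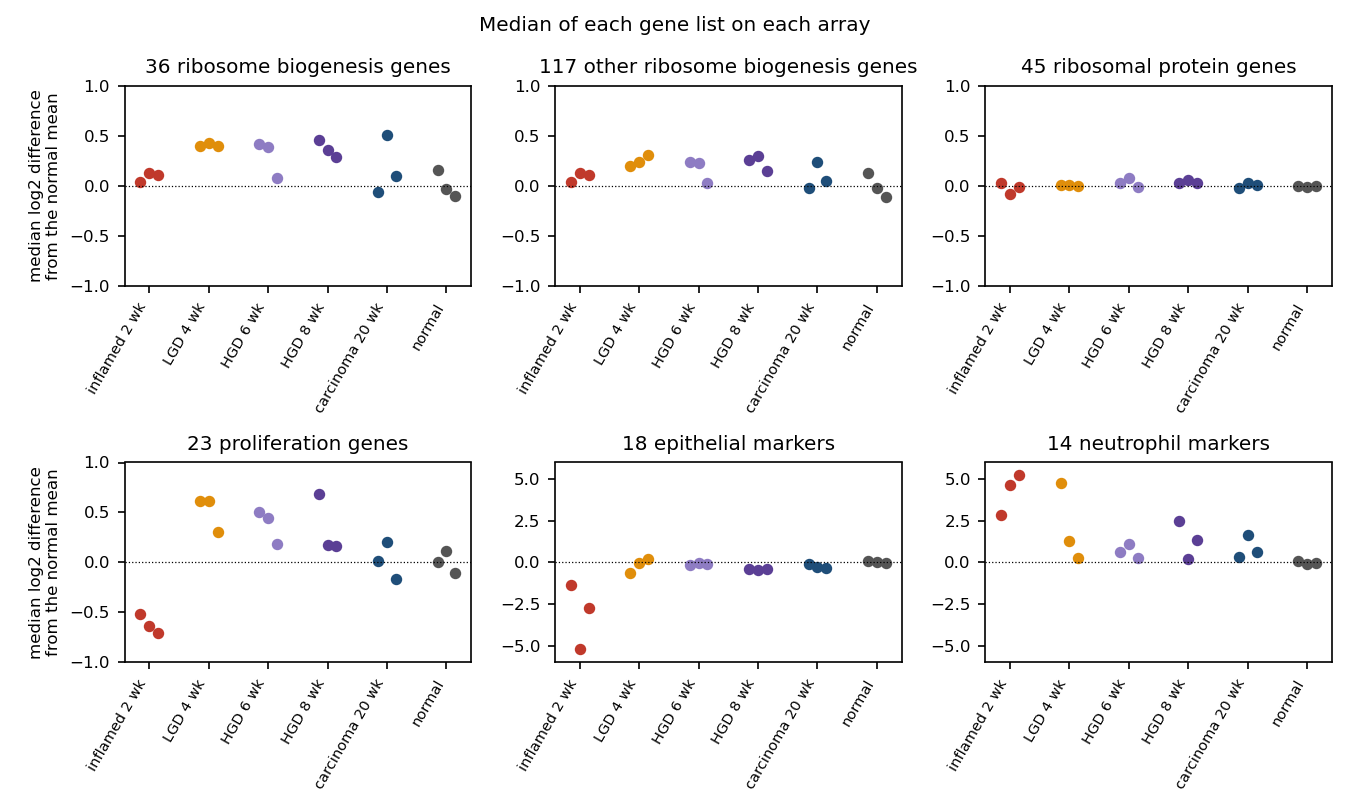
Each point is the median over a gene list, on an array, of the log2 difference from the mean of the 3 normal arrays; the last 2 panels have a wider axis. The 36 genes lie at 0.4 to 0.43 on the LGD arrays and at 0.04 to 0.13 on the inflamed arrays, where proliferation medians are -0.71 to -0.52 and neutrophil medians 2.87 to 5.27.

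Neutrophil markers summed to 1533 to 72180 in LGD and 2726 to 29734 in HGD at 8 weeks, against 805 to 946 in normal mucosa, and 2 and 3 of 14 rose. The 3 LGD arrays had neutrophil medians of 4.78, 1.28 and 0.28, and the medians of the 36 genes on them were 0.4, 0.43 and 0.4. In HGD at 6 weeks the neutrophil medians were 0.63, 1.1 and 0.28, beside 0.42, 0.39 and 0.08. In HGD at 8 weeks they were 2.48, 0.21 and 1.37, beside 0.46, 0.36 and 0.29. On the carcinomas they were 0.31, 1.63 and 0.65, beside -0.06, 0.51 and 0.1. Of 15 macrophage and monocyte markers 14 rose in inflamed mucosa, with summed signals of 39789 to 51584 against 13841 to 18445, and in HGD at 8 weeks 4 rose and 1 fell. Of 12 smooth muscle markers 5 fell in HGD at 8 weeks, with 22651 to 28470 against 44349 to 64282 in normal mucosa. In HGD at 6 weeks 0 of the 12 passed by limma, with a median of -1.08 and an unadjusted p under 0.05 for all 12. Of 12 fibroblast and matrix markers all rose in inflamed mucosa and 1 in LGD (Pdgfrb, 1.03), and of 9 lymphoid markers 0 passed at any stage (limma, unadjusted p under 0.05 for 2 in inflamed mucosa and 0 later). The part of these cells in the changes of the 36 genes was not tested.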

How the data were processed

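Total RNA of 18 colorectal samples was hybridised to Affymetrix Mouse Genome 430 2.0 arrays, 3 per group. The deposited values are signal intensities on a linear scale, 1 per probe set, made by the authors with MAS5 per the submitters' processing notes, its version and options not given in the sources used here. The array medians lay between 55.7 and 57.8, and the extreme quantiles (1 probe set in 1000 at each end) were also nearly alike, at 4.35 to 4.49 and 14927 to 15582. A normalization between arrays beyond MAS5 is therefore possible, but no source used here states one, and no further scaling was applied. Fold changes are on the log2(signal + 16) scale, which understates changes of dim genes.

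Of 45101 probe sets, 34945 have a single gene in the annotation, 932 have several and 9160 have none. Probe sets with at least 3 of the 18 arrays above the table median were kept (21653), and each of 12877 genes was read from its kept probe set of highest mean. A single limma model (version 3.58.1, R 4.3.3) over all 18 arrays with 6 group means and an intensity trend gave 9 comparisons and an F test. P-values are two-sided and adjusted by Benjamini-Hochberg across the 12877 genes of each comparison (threshold 0.05), and errors after ± are standard errors. Precision is limited by the 3 arrays a group, and p-values measure only the spread between these samples. The method was tested on simulated data with independent noise and added changes larger than most of those reported here. That test does not show how well smaller changes are found.

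The 36 genes, the lists and the tests were chosen with earlier results of these data known. By the rule, all 36 could be named, and values on every array were given per role for the largest rise and fall among the genes that passed in carcinoma and in inflamed mucosa, or the smallest p of the F test where 0 passed. From each further list up to 4 genes with the largest changes that passed could be named, and Myc. Array values of Nop2, Pes1, Mybbp1a, Nop10, Dkc1, Noc4l, Bop1, Rrs1 and Nop58 were added after their values were seen. Alternatives were no filter, other pseudocounts, no intensity trend, quantile normalization, median centring, other choices of probe set, 2 groups at a time, the replicate number as a block, and leaving out each array.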

Additional observations from a re-analysis of the deposited data

Results flagged for a closer look

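For 3 of the 36 genes an earlier and a later stage lay on opposite sides of normal mucosa on every array (8.33%, against 8.66% of all genes tested), so the count is near that of the array. Dkc1 was above all normal arrays in LGD (0.36) and below them in inflamed mucosa (-0.4), and the difference of 0.76 between these stages passed in limma (adjusted p = 0.00379); its other probe sets gave -0.39 and -0.3 in inflamed mucosa and 0.26 and 0.68 in LGD. Noc3l was above in LGD (0.29) and below in carcinoma (-0.13), and this difference of 0.42 was not tested. The other probe set of Noc3l, at -0.08 and 0, did not show it. Npm1 was above in carcinoma (0.15) and below in inflamed mucosa (-0.14), and the difference of 0.29 missed the threshold (adjusted p = 0.0529). The other, nearly as bright probe set of Npm1 gave 0.01 in carcinoma and -0.03 in inflamed mucosa and did not show it.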

How the results depend on the processing

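Of 37 results that passed for single genes, 12 passed under every alternative that measured the gene and 0 changed direction. Of 585 recomputed values, 142 missed the threshold. Without the filter 5 genes passed in LGD against normal mucosa. With only probe sets of plain suffix the counts were 3 in inflamed mucosa, 5 in LGD, 1 in HGD at 6 weeks, 8 in LGD against inflamed mucosa and 9 in the F test, with 31 genes measured. Fits on only the arrays of the 2 groups gave 0 in LGD, 3 in HGD at 6 weeks and 2 in HGD at 8 weeks. Quantile normalization gave 9 in HGD at 8 weeks, as did median centring, which gave 1 in HGD at 6 weeks. Leaving out an array gave 4 to 5 genes in inflamed mucosa, 1 to 10 in LGD, 0 to 1 in HGD at 6 weeks, 1 to 4 in HGD at 8 weeks, 0 to 3 in carcinoma, 7 to 15 in LGD against inflamed mucosa, 3 to 8 in carcinoma against inflamed mucosa and 7 to 19 in the F test. In the F test, 7 were without normal replicate 3 and 19 without HGD at 6 weeks replicate 3. There was no sign that replicate numbers pair the arrays. Correlations of same-numbered arrays, with group means removed, ran from -0.46 to 0.24. The labels do not say whether same-numbered arrays belong together. With the replicate block the counts were 5, 7, 0, 5 and 0 from inflamed mucosa to carcinoma, 12 in LGD against inflamed mucosa, 4 in carcinoma against inflamed mucosa and 14 in the F test. In LGD the block ended the calls of Nop56 (adjusted p = 0.0598) and Pes1 (adjusted p = 0.0704). The cause of these shifts was not tested.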
